A study of Mus musculus with 9 samples.

Results

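The L1, NCAM and contactin adhesion molecules are cell-surface proteins built of immunoglobulin and fibronectin type III domains that hold axons, synapses and myelin in place. The L1 family (L1cam, Chl1, Nrcam and Nfasc), the NCAMs (Ncam1 and Ncam2) and the contactins (Cntn1, Cntn2 and Cntn4) were picked out by gene symbol, from a list drawn up with earlier results of these data known, and their 9 genes were followed among the 24411 genes listed for the mouse hippocampus. All 9 passed the filter on low values and were among the 14867 genes tested.

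Hippocampi were sequenced from CWG-cPIP-treated CUG300 mice, vehicle-treated CUG300 mice and vehicle-treated CUG10 mice, with 3 mice in each group. All were wild-type male C57BL/6J mice, 10 weeks old according to the labels, that received AAV9 in CA1 of both hippocampi, and tissue was taken 10 days later. The virus carried Egfp with 300 CTG repeats in its 3′-UTR in CUG300 mice and with 10 repeats in CUG10 mice, so that the controls carried virus, EGFP and a short repeat as well. CWG-cPIP, a cyclic pyrrole-imidazole polyamide that binds CAG and CTG repeat DNA, or its vehicle was injected in 1 mixture with the virus. The repeat is thus delivered by a virus to adult tissue over days and is not inherited. CUG10 mice given CWG-cPIP and mice without virus were not analysed here. The deposited values are regularized logarithms (rlog) of gene counts on the log2 scale, in which a difference of 1 stands for a 2-fold change. These values are shrunken toward each gene's mean, and the read depth behind them is unknown. The labels number the mice without saying more of how the samples were taken.

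L1 family proteins span the membrane and bind ankyrin inside the cell, which ties them to the spectrin skeleton of the axon. NCAMs join neurons to one another, and the product of Ncam1 carries polysialic acid in young or plastic tissue. Contactins, by contrast, have no part inside the cell and work through partners such as the CNTNAP proteins. Neurofascin, contactin-1 and contactin-2 are known from the node of Ranvier and its flanks, where axon and myelin meet, and L1 and NCAM are known from axon growth and from plasticity of hippocampal synapses. Several of these genes are spliced into isoforms with separate tasks, and values per gene do not separate them. GENCODE M21 lists 6 protein-coding transcripts for Nfasc and 6 for Ncam1.

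Because the compound was designed against CAG and CTG repeats, the longest uninterrupted run of CAG or CTG triplets was located in the promoter window and in the protein-coding transcripts of each gene. The motifs were CAG and CTG, searched in any frame, and CAG on 1 strand reads as CTG on the other, so both strands were covered. This search was chosen after the expression values had been seen and is a description, with no bearing on binding. The paper also reports a high affinity of the compound for CCG repeat DNA, and runs of CCG were not searched. RefSeq promoter windows, which run from 250 bases before to 50 bases after the start site, were matched for 8 of the 9 genes. Of the 2 windows listed for L1cam, the one at chrX:73880741-73881040 on the minus strand of GRCm38.p6 held 5 CAG triplets in a row at bases 247 to 261 of its 300 bases, across the start site. It is shown because it held the longest CAG or CTG run of the family, which the capitals mark.
L1cam promoter window: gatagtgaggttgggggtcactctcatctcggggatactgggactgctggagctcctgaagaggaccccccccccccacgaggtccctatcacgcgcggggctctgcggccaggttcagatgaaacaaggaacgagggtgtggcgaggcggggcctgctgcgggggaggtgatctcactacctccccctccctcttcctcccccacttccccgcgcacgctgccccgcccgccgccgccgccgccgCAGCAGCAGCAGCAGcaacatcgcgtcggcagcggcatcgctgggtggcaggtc

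A run of at least 5 triplets stood in the windows of 21 of 11230 genes tested that had a window (0.187%), and a run of at least 3 in 262 (2.33%). In transcripts of GENCODE M21, L1cam carried the same 5 CAG triplets in the 5′ UTR of at least 1 of its protein-coding transcripts (chrX:73880780-73880794, minus strand). Cntn2 carried 5 CTG triplets in the coding part of a transcript (chr1:132533685-132533699, minus strand). Both stretches are set side by side because L1cam and Cntn2 are the genes called below, with the run in capitals and 6 bases on either side.
L1cam transcript, run at bases 41 to 55: ccgccgCAGCAGCAGCAGCAGcaacat
Cntn2 transcript, run at bases 336 to 350: agcttgCTGCTGCTGCTGCTGgccaca

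The other 7 members had runs of 2 or 3 triplets. Among 13841 genes tested that had a protein-coding transcript, 409 (2.95%) held a run of at least 5 and 31.4% held at least 3. The runs are far below the 300 repeats of the virus. L1cam and Cntn2 were called only between vehicle-treated groups, in which no mouse received the compound. Whether the runs bear on the levels was not tested.

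Levels differed widely between members. After subtraction of the log2 of the longest protein-coding transcript in kilobases, the mean rlog level in CUG10 mice was highest for Cntn1 (9.98), followed by Nrcam (9.11), Ncam1 (8.40), Cntn2 (8.37), Nfasc (8.33), Chl1 (7.91) and L1cam (7.43). Cntn4 (6.02) and Ncam2 (5.87) were lowest. The neighbors Ncam1, Cntn2 and Nfasc lay within 0.1 of each other, closer than the SD of Cntn2 (0.23) or Nfasc (0.22) between CUG10 mice. Cntn4 and Ncam2 likewise lay closer than their SDs (0.24 and 0.31). The order rests on 1 transcript length per gene. On GRCm38, Nfasc (132564690 to 132741797) and Cntn2 (132509427 to 132543256) are neighbors on the minus strand of chromosome 1, and Chl1 (103510586 to 103750211) and Cntn4 (105677660 to 106699310) both lie on the plus strand of chromosome 6. Of the others, Ncam1 lies on chromosome 9, Nrcam on 12, Cntn1 on 15 and Ncam2 on 16.

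Vehicle-treated CUG300 mice were compared with vehicle-treated CUG10 mice to ask what the long repeat changed. L1cam and Cntn2 fell, by 0.88 and 0.72 on the log2 scale, and no member was called higher. The other 7 members did not pass the threshold, although the difference was below 0 for all 9, Nrcam excepted when vehicle-treated CUG300 replicate 1 was left out (0.0085). The 2 called members of 9 stand beside 3.34% of all genes tested that were called lower and 10.7% called in either direction (limma, Benjamini-Hochberg adjusted p under 0.05 over all genes tested). Without adjustment, 3 of the 9 members were lower at p under 0.05, beside 2106 lower and 2430 higher of the 14867 genes tested. After median centering of each mouse the genes called lower numbered 908 in place of 496, and the same 2 members were called. The median difference of the members was -0.45, beside -0.011 for all genes tested, 51.6% of which were below 0. For 5 of the 9, every vehicle-treated CUG300 mouse lay below every CUG10 mouse, which held for 16.7% of all genes tested.

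**Figure D1:**
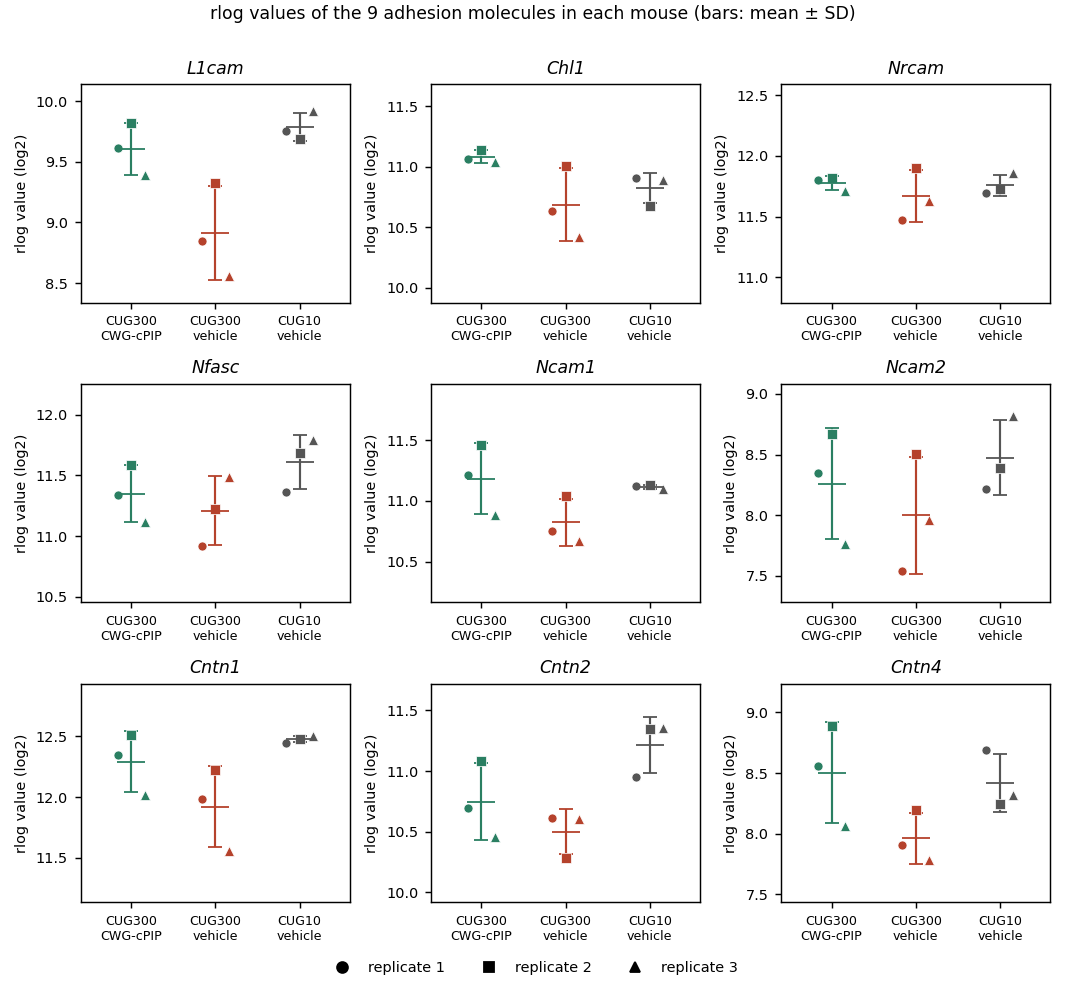
rlog values (log2) of the 9 adhesion molecules in each mouse, with 1 point per mouse, symbols for the replicate number, and the mean and SD of each group of 3. All 3 vehicle-treated CUG300 mice lay below all CUG10 mice for L1cam, Ncam1, Cntn1, Cntn2 and Cntn4, and the panels share the width but not the position of their scales.

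L1cam, the founding member of the L1 family and a receptor that guides growing axons, had rlog values of 9.62, 9.82 and 9.39 in CWG-cPIP-treated CUG300 mice, 8.85, 9.33 and 8.56 in vehicle-treated CUG300 mice, and 9.75, 9.69 and 9.92 in CUG10 mice. The vehicle-treated CUG300 mice did not overlap either other group, and their SD of 0.39 was wider than the 0.21 with CWG-cPIP and the 0.12 in CUG10 mice. L1cam was 1.84-fold lower in vehicle-treated CUG300 mice than in CUG10 mice (log2 difference -0.88, SE 0.19, 95% confidence interval -1.31 to -0.44, limma adjusted p = 0.0289). The call was lost when CUG10 replicate 1 (-0.89, adjusted p = 0.0909), replicate 2 (-0.92, 0.0795) or replicate 3 (-0.81, 0.117) was left out. It was also lost without vehicle-treated CUG300 replicate 3 (-0.70, adjusted p = 0.10) and without CWG-cPIP replicate 1, which left the difference as it was and changed the shared variance (adjusted p = 0.0573). GENCODE draws L1cam on chromosome X of GRCm38 from 73853778 to 73896105 on the minus strand, over the neighboring gene Arhgap4 on the same strand, whereas RefSeq ends L1cam at 73880838. Arhgap4 rose in the same comparison, by 0.85 on the log2 scale (limma adjusted p = 0.0383), and how reads in the overlap were assigned is not given in the sources used here.

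Cntn2 encodes contactin-2 (TAG-1), a glycolipid-anchored protein of axons and of the glia that wrap them, and lies on chromosome 1 from 132509427 to 132543256 on the minus strand. Its rlog values were 10.70, 11.08 and 10.46 in CWG-cPIP-treated CUG300 mice, 10.61, 10.28 and 10.60 in vehicle-treated CUG300 mice, and 10.95, 11.34 and 11.36 in CUG10 mice. The vehicle-treated CUG300 mice lay below all CUG10 mice and overlapped the CWG-cPIP group. Cntn2 was 1.65-fold lower in vehicle-treated CUG300 mice than in CUG10 mice (log2 difference -0.72, SE 0.18, 95% confidence interval -1.13 to -0.31, limma adjusted p = 0.0394). Leaving out CUG10 replicate 1 (-0.85, adjusted p = 0.0864), replicate 2 (-0.66, 0.124) or replicate 3 (-0.65, 0.143) ended the call. The same was true for vehicle-treated CUG300 replicate 2 (-0.61, adjusted p = 0.0616) and replicate 3 (-0.77, 0.110), and for CWG-cPIP replicate 1 (-0.72, 0.0715). Over the whole table, 0 genes were called when CUG10 replicate 1 or 3 or vehicle-treated CUG300 replicate 3 was left out, 2 without CUG10 replicate 2 and 265 when CWG-cPIP replicate 1 was dropped, against 2489 without vehicle-treated CUG300 replicate 2 and 1592 with all mice. The calls among related genes given below were therefore also lost where no gene was called.

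Cntn1 encodes contactin-1 (F3), the partner of Cntnap1 beside the node, and had the highest level per kilobase of the family. It stood at 12.35, 12.51 and 12.02 in CWG-cPIP-treated CUG300 mice, 11.98, 12.22 and 11.56 in vehicle-treated CUG300 mice, and 12.45, 12.48 and 12.51 in CUG10 mice. CUG10 mice lay within an SD of 0.03, and every vehicle-treated CUG300 mouse was below them. The log2 difference of -0.56 in vehicle-treated CUG300 against CUG10 mice (SE 0.18) missed the threshold, with a limma adjusted p of 0.0732. It passed when vehicle-treated CUG300 replicate 2 was left out (-0.71, adjusted p = 0.0360) and when CWG-cPIP replicate 3 was left out (-0.56, 0.0487).

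Cntn4, a contactin known from the wiring of olfactory and visual axons, had values of 8.56, 8.89 and 8.06 in CWG-cPIP-treated CUG300 mice, 7.91, 8.19 and 7.78 in vehicle-treated CUG300 mice, and 8.69, 8.24 and 8.32 in CUG10 mice. Vehicle-treated CUG300 mice did not overlap CUG10 mice, but the gap between the highest of them and the lowest CUG10 mouse was small. The log2 difference of -0.45 had a limma adjusted p of 0.193 (95% confidence interval -0.95 to 0.04).

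Ncam1, the classical neural cell adhesion molecule, had values of 11.22, 11.46 and 10.88 with CWG-cPIP, 10.76, 11.04 and 10.67 in vehicle-treated CUG300 mice, and 11.12, 11.13 and 11.10 in CUG10 mice. The 3 CUG10 mice were nearly equal, with an SD of 0.02, and vehicle-treated CUG300 mice lay below them. With a difference of -0.29 on the log2 scale, the limma adjusted p was 0.221.
Ncam2, its paralog, had values of 8.35, 8.67 and 7.76 with CWG-cPIP, 7.54, 8.50 and 7.96 in vehicle-treated CUG300 mice, and 8.22, 8.39 and 8.82 in CUG10 mice. It varied most of the 9 within groups, with SDs of 0.46 with CWG-cPIP, 0.48 in vehicle-treated CUG300 mice and 0.31 in CUG10 mice, and the groups overlapped (-0.47 for CUG300 vehicle against CUG10, adjusted p = 0.303).

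Within the L1 family, the 3 relatives of L1cam overlapped between vehicle-treated CUG300 mice and CUG10 mice. Nfasc, which encodes the neurofascins of the axon initial segment, the node and the paranodal glia, had values of 11.34, 11.59 and 11.12 with CWG-cPIP, 10.92, 11.22 and 11.49 in vehicle-treated CUG300 mice, and 11.36, 11.69 and 11.79 in CUG10 mice. Its log2 difference for CUG300 vehicle against CUG10 was -0.40 (95% confidence interval -0.81 to 0.0017, limma adjusted p = 0.165). Nrcam, another ankyrin-binding protein of nodes, had values of 11.80, 11.81 and 11.71 with CWG-cPIP, 11.48, 11.90 and 11.63 in vehicle-treated CUG300 mice, and 11.69, 11.73 and 11.86 in CUG10 mice. It had the smallest difference of the 9, with -0.09 for CUG300 vehicle against CUG10 (95% confidence interval -0.35 to 0.17, adjusted p = 0.638). Chl1, the close homolog of L1, had values of 11.07, 11.14 and 11.04 with CWG-cPIP, 10.64, 11.01 and 10.42 in vehicle-treated CUG300 mice, and 10.90, 10.68 and 10.89 in CUG10 mice. CWG-cPIP-treated mice stood above every mouse of both other groups, and the difference between CUG300 vehicle and CUG10 was -0.14 (95% confidence interval -0.46 to 0.19, adjusted p = 0.552). Whether the differences of L1cam and its relatives differ from each other was not tested.

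**Figure D2:**
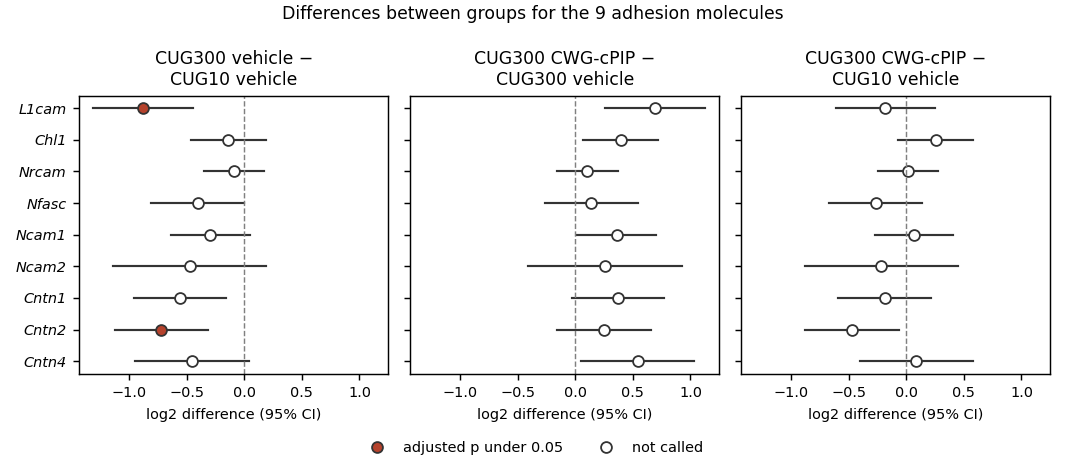
Differences between group means of rlog values (log2) with 95% confidence intervals from limma for the 9 adhesion molecules, in 3 comparisons with 3 mice a group. Filled points passed an adjusted p under 0.05, which only L1cam (-0.88) and Cntn2 (-0.72) did, in CUG300 vehicle against CUG10 vehicle.

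CWG-cPIP-treated and vehicle-treated CUG300 mice were then compared, to ask what the compound changed in the presence of the long repeat. No member was called, and neither was any of the 14867 genes (0%, limma adjusted p under 0.05), whereas without adjustment 777 genes had a higher and 535 a lower level at p under 0.05. The difference was above 0 for all 9 members, Nfasc excepted when vehicle-treated CUG300 replicate 1 was left out (-0.0063), with a median of 0.36 beside a median of -0.003 for all genes tested. At an unadjusted p under 0.05, 4 of the 9 members were higher, namely L1cam, Chl1, Ncam1 and Cntn4, beside 5.23% of all genes tested. For L1cam and Chl1 every CWG-cPIP-treated mouse lay above every vehicle-treated one, which held for 4.97% of genes.

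L1cam was 0.70 higher on the log2 scale with CWG-cPIP than with vehicle in CUG300 mice (95% confidence interval 0.26 to 1.13, unadjusted p = 0.00545 in limma, adjusted p = 0.483). The difference was 0.54 for Cntn4 (interval 0.05 to 1.03), 0.39 for Chl1 (0.07 to 0.72) and 0.36 for Ncam1 (0.02 to 0.70), each with the same adjusted p of 0.483. For Cntn1 it was 0.37 (-0.03 to 0.77), for Ncam2 0.26 (-0.41 to 0.92) and for Cntn2 0.25 (-0.16 to 0.66). Nfasc (0.14, -0.27 to 0.54) and Nrcam (0.11, -0.16 to 0.37) had the smallest differences. Single mice moved several of these differences by over 1.5 times. Without CWG-cPIP replicate 2 the difference was 0.080 for Cntn2, 0.055 for Ncam2, 0.020 for Nfasc, 0.22 for Ncam1 and 0.35 for Cntn4. Without vehicle-treated replicate 1 it was 0.029 for Ncam2 and 0.0092 for Nrcam, without vehicle-treated replicate 2 it was 0.14 for Cntn2, 0.51 for Ncam2 and 0.22 for Nrcam, and without vehicle-treated replicate 3 it was 0.19 for Cntn1, 0.26 for Chl1 and 0.28 for Nfasc. Without CWG-cPIP replicate 3 it was 0.51 for Ncam2, 0.39 for Cntn2 and 0.25 for Nfasc. The intervals with all mice leave room for a difference above 0.5 on the log2 scale in 8 of the 9 members, Nrcam being the exception. The vehicle-treated CUG300 mice served in both comparisons, so a low value in them lowers the first difference and raises the second, and the opposite signs are not independent of each other.

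CWG-cPIP-treated CUG300 mice were last set against CUG10 mice, which share neither compound nor repeat length. No member and no gene was called (0%, limma adjusted p under 0.05), whereas without adjustment 1207 genes had a higher and 790 a lower level at p under 0.05. The count of 0 rests in part on CWG-cPIP replicate 2, without which 567 genes were called. Leaving out any other single mouse gave 0 to 4, and the members called stayed at 0 throughout. Cntn2 was the 1 member of 9 lower at an unadjusted p under 0.05, beside 5.31% of all genes tested, with a difference of -0.47 (95% confidence interval -0.88 to -0.06, adjusted p = 0.317). No member lay below CUG10 mice without overlap, which 12.4% of genes did. Chl1 alone lay above them without overlap (0.26, interval -0.07 to 0.58, adjusted p = 0.477), beside 13.4% of genes. L1cam had a difference of -0.18 (-0.61 to 0.25). An F test over all 3 groups called no member and no gene (0%, limma adjusted p under 0.05). However, 3499 genes had an unadjusted p under 0.05, and the smallest adjusted p was 0.0547. The adjusted p was 0.0751 for L1cam and 0.106 for Cntn2 in that test.

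The distance of each mouse from the CUG10 mean shows how mice of a group differed. The median distance over the 9 members was -0.12, 0.06 and -0.40 on the log2 scale in CWG-cPIP-treated replicates 1, 2 and 3, and -0.51, -0.22 and -0.52 in vehicle-treated CUG300 replicates 1, 2 and 3. All 9 members lay below the CUG10 mean in vehicle-treated replicates 1 and 3 and 6 of 9 in replicate 2. In CWG-cPIP-treated mice, 5, 2 and 8 of the 9 lay below it. By the median, treated replicate 3 was therefore within the range of the vehicle-treated mice, whereas treated replicates 1 and 2 lay above it. Cntn2 departed from this order, since vehicle-treated replicate 2, the mildest for the family as a whole, had its lowest value, at -0.93 from the CUG10 mean. Nfasc departed from it too, with -0.13 in vehicle-treated replicate 3 against -0.39 in replicate 2, and -0.50 in treated replicate 3. For L1cam and Chl1, treated replicate 3 lay narrowly above every vehicle-treated CUG300 mouse (-0.40 against at most -0.46, and 0.21 against at most 0.18).

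**Figure D3:**
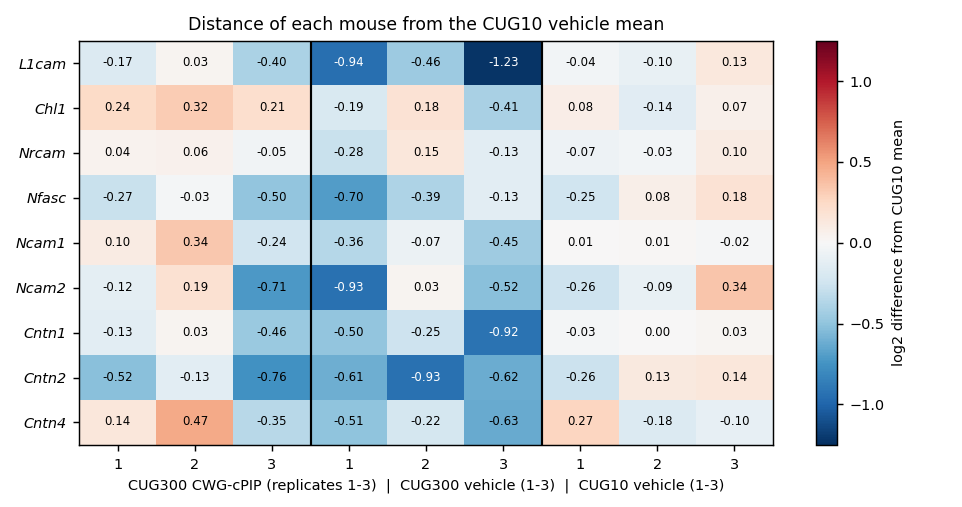
Difference of each mouse's rlog value (log2) from the mean of the 3 CUG10 mice, with genes in rows, mice in columns and blue for values below that mean. L1cam reached -1.23 in vehicle-treated CUG300 replicate 3, Cntn2 reached -0.93 in vehicle-treated replicate 2, and Chl1 was above the mean in all 3 CWG-cPIP-treated mice.

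Members moved together in part. Over the 9 mice, L1cam and Cntn1 had a Pearson's r of 0.95 (Spearman's rho 0.95, and r 0.88 without the 2 mice farthest from the median of L1cam), and r was 0.93 after removal of the group means. For Ncam1 and Cntn4 these values were 0.94, 0.92, 0.85 and 0.88. For Nfasc and Cntn2 they were 0.81, 0.80, 0.85 and 0.65, and for L1cam and Cntn2 0.64, 0.82, 0.91 and 0.04. Cntn2 and Chl1 had an r of -0.03 (rho -0.02). These values describe 9 mice that share their groups, and no test was made of them.

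Of all genes tested, the ones most like L1cam over the 9 mice were Mturn (r 0.99), Reps2 (0.99) and Pdk2 (0.99). For Cntn1 they were Ulk2 (0.995), Ank (0.989) and Cep83os (0.989), and for Cntn2 Serinc5 (0.99), Arhgef10 (0.98) and Pik3c2b (0.97). Chl1 was closest to Tmem150c (0.96), Nrip2 (0.95) and Fam84a (0.95), a looser fit than that of any other member. Klhl29 and Iqsec2 were among the genes nearest to Nrcam. Nfasc was most like Tm9sf3, Slc43a2 and Rbsn, and Ncam1 like Vamp1, Socs5 and Tmx4. Ncam2 was nearest to Glg1, Klhl11 and Mgat5 and Cntn4 to Tekt5, Sparcl1 and Ankrd34b. No gene stood among the 3 nearest of more than 1 member.

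Bulk hippocampus cannot tell fewer cells of a type from less RNA per cell. The summed level of 8 neuronal markers, among them Rbfox3, Snap25 and Map2, was 16.3 to 16.5 (log2) in CWG-cPIP-treated CUG300 mice, 16.1 to 16.3 in vehicle-treated CUG300 mice and 16.6 to 16.7 in CUG10 mice. In CUG300 vehicle against CUG10, none of the 8 was called in limma and 7 were lower at an unadjusted p under 0.05, beside 2106 of the 14867 genes tested. Their median difference was -0.39, and that of the adhesion molecules was -0.45. With CWG-cPIP against vehicle the median was 0.15 for the 8 neuronal markers, none of which had an unadjusted p under 0.05. It was 0.36 for the adhesion molecules, 4 of which did. L1cam followed the summed neuronal level with an r of 0.85 over the 9 mice (0.73 without the 2 mice farthest from its median, 0.65 after removal of the group means). For Cntn1 the r was 0.89 (0.81 and 0.81). These were the largest of the 9 members, and the others ranged from 0.28 for Nrcam to 0.69 for Cntn2. Nfasc had 0.39, 0.88 and -0.51 in these measures. With other lists, the r of Cntn1 over the 9 mice was -0.89 for endothelium, 0.86 for oligodendrocyte precursors and -0.85 for blood leukocytes. The summed level of 8 markers of mature oligodendrocytes was 15.998 to 16.6 with CWG-cPIP, 15.7 to 17.1 in vehicle-treated CUG300 mice and 16.6 to 17.1 in CUG10 mice, with a median difference of -0.51 for CUG300 vehicle against CUG10 and no marker called, 1 being lower at an unadjusted p under 0.05. Cntn2 followed this level with an r of 0.75 (0.50 without the 2 mice farthest from its median, 0.71 after removal of the group means), and L1cam with 0.18. With the summed neuronal level Cntn2 had 0.69, 0.91 and -0.17 in these measures, and over the 9 mice its r was larger with other lists, at 0.84 for oligodendrocyte precursors, -0.90 for blood leukocytes and -0.85 for interferon-response genes and for microglia. For L1cam it was 0.77 for precursors, -0.82 for leukocytes, -0.78 for interferon-response genes and -0.77 for microglia. All markers lay above the filter, none at 0, and the part of cell composition in the results was not tested.

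Immune and other markers differed between the groups as well. In vehicle-treated CUG300 against CUG10 mice, 5 of 6 markers of blood leukocytes, 6 of 6 interferon-response genes, 3 of 6 microglial and 2 of 5 astrocyte markers were called higher. Called higher in the same comparison were 1096 of the 14867 genes tested. Among the astrocyte markers, Slc1a2 went the other way, lower without overlap (-0.85, unadjusted p = 0.0329, adjusted p = 0.128), and Slc1a3 had -0.0018. Of 5 markers of hippocampal subfields 1 was called lower, beside 3.34% of all genes tested. It was Fibcd1 (-0.80, adjusted p = 0.0241), a marker of CA1 neurons. Wfs1, the other CA1 marker of the list, had -0.018 (adjusted p = 0.935) and the remaining 3 lay between -0.23 and 0.12. The subfield and astrocyte markers are named here after their values were seen. With CWG-cPIP against vehicle none of the 5 subfield markers was called, and all 5 differences were above 0 (median 0.35). Fibcd1 (0.66, unadjusted p = 0.00209 in limma) and Wfs1 (0.35, 0.0162) were higher without overlap, which held for 4.97% of all genes tested. In vehicle-treated CUG300 against CUG10 mice, none of 4 markers of oligodendrocyte precursors and none of 4 endothelial markers was called in limma. Without adjustment 3 of the precursor markers were lower and 2 of the endothelial markers higher at p under 0.05. Of the 14867 genes tested, 2106 were lower and 2430 higher at that threshold. The summed interferon level was 13.3 to 15.7 in CWG-cPIP-treated mice, 15.2 to 15.7 in vehicle-treated CUG300 mice and 11.9 to 12.8 in CUG10 mice. The summed level of 5 choroid plexus markers was 10.3 to 10.8 in CWG-cPIP-treated mice, 13.999 to 15.95 in vehicle-treated CUG300 mice and 10.4 to 14.9 in CUG10 mice. None of these 5 was called in limma in either comparison. For vehicle-treated CUG300 against CUG10 mice, 0 had an unadjusted p under 0.05. With CWG-cPIP against vehicle, all 5 were lower without overlap, at unadjusted p from 0.00137 to 0.0104 and with differences from -4.84 for Ttr to -1.37 for Kl (median -2.58), in the same comparison in which the differences of all 9 adhesion molecules were above 0. The part of these markers in the values of the adhesion molecules was not tested.

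The partners of the family were described by lists. Of the contactins outside the 9, Cntn3 fell by 0.65 on the log2 scale in vehicle-treated CUG300 against CUG10 mice (limma adjusted p = 0.0456), Cntn6 had -0.64 (adjusted p = 0.0950) and Cntn5 -0.13, so that 1 of 3 was called. In that comparison 3.34% of all genes tested were called lower. Of the 7 CNTNAP genes, some of whose products pair with contactins along myelinated axons, 0 were called in limma. At an unadjusted p under 0.05, 2 were lower, beside 2106 of the 14867 genes tested. All 7 differences were below 0 (median -0.42). Cntnap1, the partner of contactin-1, had the largest of them at -0.97 (SE 0.31, adjusted p = 0.0729), and Cntnap2, the partner of contactin-2, had -0.42 (adjusted p = 0.219).

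Inside the cell, 2 of 9 genes for anchors to the membrane skeleton were called, both higher, beside 1096 of the 14867 genes tested. At an unadjusted p under 0.05, 3 others were lower, Ank2, Ank1 (-0.73) and Sptbn4 (-0.50). At that threshold 2106 of the 14867 genes tested were lower and 2430 higher. Msn, which encodes the actin linker moesin, abundant in immune and endothelial cells, rose by 1.54 on the log2 scale in vehicle-treated CUG300 against CUG10 mice (limma adjusted p = 0.0356). Ezr, which encodes ezrin, rose by 0.54 (adjusted p = 0.0457). The ankyrins that bind the L1 family gave -0.19 for Ank3 (adjusted p = 0.196) and -0.35 for Ank2 (0.114), and the median of the list was -0.35. Of 4 cytoplasmic partners none was called in limma and 3 were lower at an unadjusted p under 0.05 (median -0.30), with 0.05 for the kinase gene Fyn and -0.29 for the scaffold gene Dlg3.

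Outside the cell, 3 of 11 partners were called, beside 10.7% of all genes tested called in either direction. Tnc, the matrix protein tenascin-C, which astrocytes make after injury, rose by 1.55 on the log2 scale in vehicle-treated CUG300 against CUG10 mice (adjusted p = 0.0316). Ncan, the proteoglycan neurocan, which binds L1 and NCAM, fell by 0.51 (adjusted p = 0.0467), and App, the amyloid precursor and a contactin ligand, fell by 0.35 (adjusted p = 0.0459). Ptprz1, a phosphatase that binds contactin-1, had -0.37 (adjusted p = 0.431). Among 5 enzymes that shed these proteins or add polysialic acid, none was called in limma. At p under 0.05 without adjustment 1 was higher and 1 was lower, beside 2430 higher and 2106 lower of the 14867 genes tested. Of the 5, the secretase genes Bace1 and Adam10 had differences of -0.47 (adjusted p = 0.0929) and 0.05. Between CWG-cPIP-treated and vehicle-treated CUG300 mice, no gene of these lists was called in limma, and at an unadjusted p under 0.05 the genes that were higher numbered 2 of 3 other contactins, 1 of 7 CNTNAP genes, 2 of 9 anchors and 0 in the remaining lists, beside the 5.23% of all genes. Lower at that threshold was 1 gene, Ezr, without overlap (-0.45, unadjusted p = 0.0119). The median difference in that comparison was 0.44 for the other contactins and 0.42 for the CNTNAP genes.

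**Figure D4:**
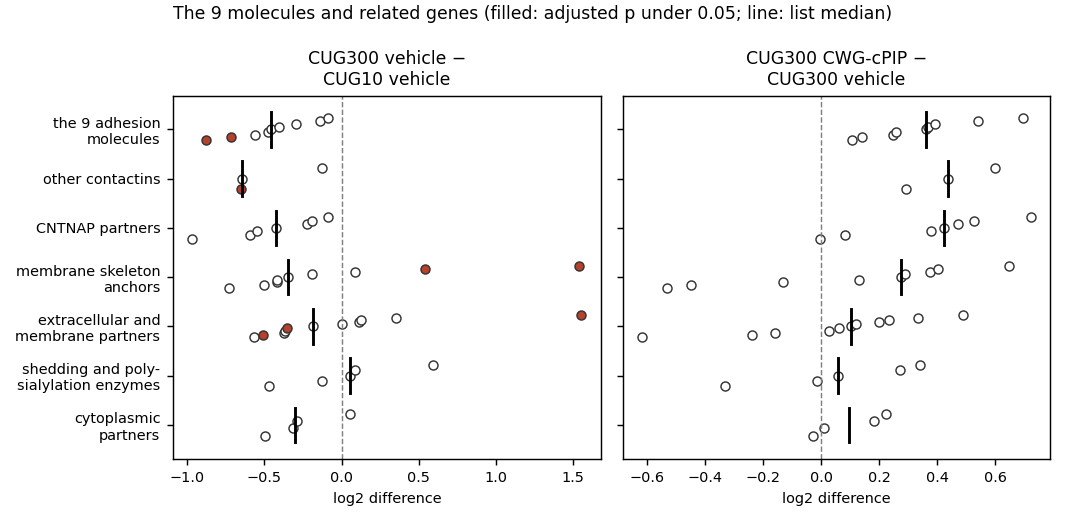
Log2 differences of the 9 adhesion molecules and of 6 lists of related genes, with 1 point per gene, filled points for an adjusted p under 0.05 and a black line at the list median. In CUG300 vehicle against CUG10 vehicle the medians were -0.45 for the adhesion molecules, -0.64 for the other contactins and -0.42 for the CNTNAP partners, and in CWG-cPIP against vehicle no point was filled.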

How the data were processed

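Total RNA of 9 mouse hippocampi was sequenced with a directional library kit. Per the labels and the submitters' processing notes, the authors used Trim Galore 0.6.6 for trimming, STAR 2.7.9a for alignment to mm10 and RSEM 1.3.3 for counting, and deposited rlog values on the log2 scale made with DESeq2 1.36.0, which scales samples by size factors and shrinks low counts toward the gene's mean. Fold changes of weakly expressed genes are thus understated. How the rlog step was set, which annotation served and whether counting used the strand is not given in the sources used here. Read depth is unknown.

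The 14867 of 24411 genes whose mean over all mice reached log2(10) were fitted with limma 3.58.1 in R 4.3.3, with 1 mean per group, a variance trend, 1 variance per gene over all 9 mice (6 residual and 3.03 prior degrees of freedom), two-sided moderated tests and Benjamini-Hochberg adjustment over all genes in each comparison. P-values measure the spread between these mice only. Symbols in date form, 23 in all, stayed in the fit and are not named. The members, the related lists and the markers were chosen with earlier results of these data known. All 9 members are named, and of each related list the called genes and the first 2. The next of kin in expression were the 3 tested genes with the largest Pearson's r, predicted genes left out, and 1 gene that this rule names is not reported here. Marker levels are the log2 of summed linear values. The fit was tested on simulated data for CUG300 vehicle against CUG10. It called 9 of 67 genes with a log2 difference of 0.5, 54 of 67 with 1 and 65 of 66 with 2, and 12 unchanged genes. Fewer genes were changed there than were called in the data. Each result was recomputed after centering on the median, after quantile scaling, with the filter dropped or raised to log2(100), with limma untrended or robust, with the third group removed, with a block for the replicate number, and without each mouse in turn. Splicing was not analysed here.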

Additional observations from a re-analysis of the deposited data

How the results depend on the processing

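Of 153 values of members under the alternatives for CUG300 vehicle against CUG10, 137 kept direction and side of the threshold, 12 lost a call (5 for L1cam, 7 for Cntn2), 3 gained one (Cntn1) and 1 changed sign. For CWG-cPIP against vehicle 152 of 153 and for CWG-cPIP against CUG10 147 of 153 were kept. The difference of L1cam in CUG300 vehicle against CUG10 ranged from -1.08 to -0.70 (adjusted p 0.0163 to 0.117) and that of Cntn2 from -0.85 to -0.61 (0.0177 to 0.143). With 1 mouse left out, the called members numbered 0 to 3 and the called genes 0 to 2489 in that comparison. Genes called numbered 0 to 3 for CWG-cPIP against vehicle and 0 to 567 for CWG-cPIP against CUG10 with 1 mouse left out, and 3 and 14 when only the 2 groups compared were fitted. With 1 mouse left out, the F test called 0 to 1 members, Cntn2 without CWG-cPIP replicate 2 and L1cam without replicate 3. Differences near 0 changed sign with 1 mouse left out, for Nrcam in CUG300 vehicle against CUG10 (-0.21 to 0.0085), Nfasc in CWG-cPIP against vehicle (-0.0063 to 0.28), and in CWG-cPIP against CUG10 for Nrcam (-0.016 to 0.068), Ncam1 (-0.069 to 0.22), Ncam2 (-0.42 to 0.034) and Cntn4 (-0.10 to 0.31). Nrcam also did so under median centering (-0.042). The cause was not tested.

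With the replicate number as a block, 2 members were called, L1cam and Cntn1 (adjusted p = 0.0486) but not Cntn2 (0.0589), among 1512 genes. Same-numbered mice deviated together (r over 0.1) in 3 of 9 pairs, with r from -0.50 to 0.41, so the numbers were not taken as pairs. Median centering moved the median of all genes to -0.09 and gave 1014 genes higher and 908 lower, against 1096 and 496 (52.8% and 68.8% higher, and 58.0% with quantile scaling). Depth is unknown, so its effect on these values could not be assessed.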
